A study of Mus musculus with 109 samples.

Results

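Ch8.B7, called B7 here, is a 4C-seq bait in a gene desert of mouse chromosome 8, close to its centromere. Its members are the 12 libraries titled with that bait name, of 109 libraries in the series. 4C-seq (circularised chromosome conformation capture) fixes chromatin, cuts it with a restriction enzyme, ligates the cut ends and reads which HindIII sites were joined to 1 chosen fragment, the bait. The study followed contacts through early G1 in C127, a single mouse cell line of mammary tumour origin, and the times are those in the library titles. Cells were held in mitosis with nocodazole for 4 h and collected then (1 library), or released for 30 min (2 libraries), 1 h (2), 2 h (2 technical replicates), 3 h (1) or 4 h (1). G2 cells (1 library) were taken 15 h after release, and G0 cells (2 libraries) after 5 days of serum starvation. All groups had the same fixation, 1% formaldehyde for 10 min, then HindIII as the first and DpnII as the second enzyme. The first hour means the 4 libraries titled 30 min and 1 h, and 2 to 4 h the libraries titled 2 h (technical replicates summed), 3 h and 4 h. Nothing says that the other replicates, called biological in the labels, came from separate cultures for each bait, so p-values measure the spread between libraries, which may be technical.

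Mouse chromosomes carry their centromere at one end, and in interphase nuclei the satellite repeats around the centromeres of several chromosomes gather in shared bodies, the chromocentres. Gene deserts are long stretches without protein-coding genes, usually late replicating and near the nuclear lamina or chromocentres. Condensed mitotic chromosomes lack the domain structure of interphase, which is built again in early G1.

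The bar code of the libraries is the end of the bait fragment next to the ligated HindIII site. It matched chromosome 8 of mm9 once, at chr8:7223950-7223970 on the + strand, and other chromosomes were not searched. The sequences show where reads start and how the libraries were marked, with the HindIII site in capitals. The short form was used in 8 libraries and the long form, with 4 more bases (TACT) at its 5′ end, in 4: G0 replicate 1, mitosis, 1 h replicate 2 and 30 min replicate 2. The last sequence is the end of the bait fragment on the genome.
B7 bar code, 21 bases: tattaggacagacagAAGCTT
B7 bar code, 25 bases: tacttattaggacagacagAAGCTT
B7 bait fragment end, chr8:7223821-7223970: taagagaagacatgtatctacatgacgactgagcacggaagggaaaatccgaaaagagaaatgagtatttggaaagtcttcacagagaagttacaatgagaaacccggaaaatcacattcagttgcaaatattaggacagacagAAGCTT
The bait fragment, chr8:7222267-7223970, is 1704 bp long, and 416 bases separate its last DpnII site from the HindIII end. It is intergenic in the GENCODE annotation, with 0 protein-coding genes within 500 kb. The gene-free span around it runs for 2.98 Mb, chr8:5640997-8617433, from Gm1840 on the centromere side to Efnb2, which encodes the membrane-bound ligand ephrin-B2, on the far side. The bait lies 4.22 Mb from the first assembled base of chromosome 8 (position 3000001), which is 131.7 Mb long. GC content within 500 kb of the bait is 37.2%, against 42.4% for the whole of chromosome 8.

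The values are raw reads at 823352 HindIII sites, 39480 of them on chromosome 8. A captured site is one with 1 read or more. Sites within 20 kb of the bait, which held 6.40% to 22.9% of the reads, were left out of all shares below, and so was the other end of the bait fragment, which alone held 3.13% to 13.8%. Near contacts are those 20 kb to 2 Mb away, 653 sites on each side. Long-range contacts are the 38160 sites of chromosome 8 beyond 2 Mb, nearly all on the far side, and 783872 sites lie on other chromosomes.

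Total reads ran from 383908 (4 h) to 6722592 (G0 replicate 1). The reads come from PCR with no molecular identifiers, so a site with many reads may stand for few ligations, and the reads give no counting interval for ligation events. In all 12 libraries more reads lay around B7 than around any other bait of chromosome 8. The series' baits on other chromosomes were not compared. Certain libraries nevertheless stood apart. The libraries titled 1 h replicate 2 and 2 h technical replicate 1, columns 6 and 7 of the deposited table, shared 96.0% of the captured other-chromosome sites of the smaller one, 25.3 times the number that random overlap gives. The shared sites held 99.4% of the reads of each, and the log2 reads at them correlated at 0.804 (Pearson, across sites, which are not replicates). Their bar codes differ in length. At the other 5 baits of chromosome 8 the same pair of titles shared 64.9% to 96.7%. The libraries titled 30 min replicate 2 and 3 h, columns 10 and 11, shared 32.04% of the smaller library's sites, 14.6 times random, against 2.41 to 4.87 times at the other baits. The other 64 pairs of B7 libraries shared 4.49% to 14.8% of the smaller one's sites (median 7.15%), and the 2 h technical replicates shared 8.93%. Which title of a sharing pair describes its cells was not tested, so every value below belongs to a title, and the results are also given without these libraries where that changes them.

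**Figure D1:**
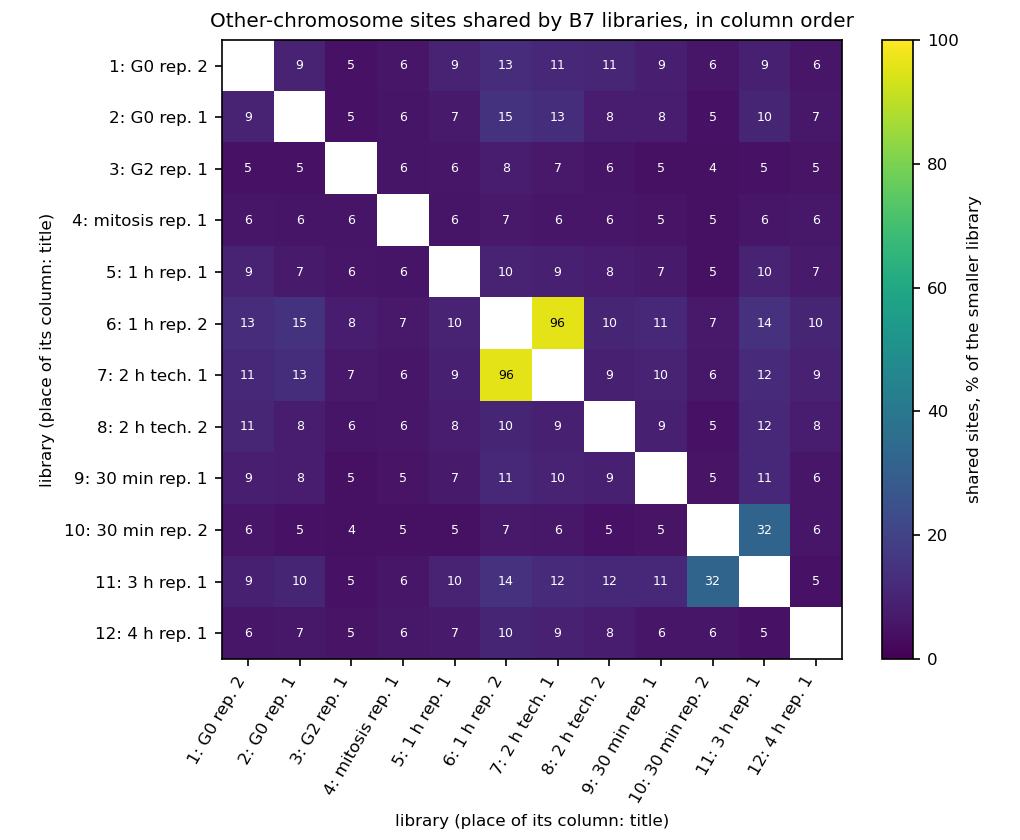
Share of the smaller library's captured other-chromosome sites that a pair of B7 libraries had in common, for the 12 libraries in column order on both axes. The pair titled 1 h replicate 2 and 2 h technical replicate 1 shared 96.0%, the pair titled 30 min replicate 2 and 3 h shared 32.04%, and no other pair was above 14.8%.

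B7 contacts were dense near the bait and fell off with distance in every library. The median library captured 69.1% of near sites on the centromere side (range 48.1% to 75.5%) and 78.9% on the far side (61.3% to 84.4%), over 11 libraries with the 2 h technical replicates summed. It captured 17.4% of long-range sites (1.94% to 39.3%) and 1.84% of sites on other chromosomes (0.511% to 5.57%). On the far side the median was 67.6% at 2 to 10 Mb, 27.7% at 10 to 50 Mb and 4.71% beyond 50 Mb. The library titled 4 h captured 7.12% of sites at 2 to 10 Mb on that side, the lowest of the 11 libraries. On the centromere side, where the assembled sequence ends 4.22 Mb away, the median at 2 Mb and beyond was 61.3%.

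By title, the near share of chromosome 8 reads was 45.7% in mitosis, 62.0% and 70.5% at 30 min, 41.6% and 54.9% at 1 h, 58.2% at 2 h (53.2% and 59.98% in the technical replicates), 74.1% at 3 h and 76.5% at 4 h. It was 42.9% in G2 and 42.2% in both G0 libraries. Both 30 min libraries were above both 1 h libraries, and 1 h replicate 1 was the lowest of all, so the values did not run one way with the titled time. In column order the same values ran 42.2% (G0 replicate 2), 42.2% (G0 replicate 1), 42.9% (G2), 45.7% (mitosis), 41.6% (1 h replicate 1), 54.9% (1 h replicate 2), 53.2% and 59.98% (2 h), 62.0% (30 min replicate 1), 70.5% (30 min replicate 2), 74.1% (3 h) and 76.5% (4 h). Along the columns the near share was low in the first 5 libraries and highest in the last, a description with no test, since column order is no label. High near shares at 4 h and low ones in G0 were not particular to B7. At the chromosome 8 baits B26, B44, B53, B87 and B118 the title 4 h was also highest, with 71.4%, 74.8%, 57.5%, 68.4% and 73.9%. The G0 libraries of these baits had 5.48% to 33.5%.

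Captured long-range sites numbered 10530 in mitosis, 5465 and 2657 at 30 min, 8248 and 13787 at 1 h, 12323 and 7454 in the 2 h technical replicates, 1232 at 3 h and 740 at 4 h. There were 3099 in G2 and 6672 and 6623 in G0. The 3 libraries with the fewest long-range sites, 4 h, 3 h and 30 min replicate 2, also had the highest near shares, and the part of library complexity in those shares was not tested. G2, with 3099 sites, had a low near share of 42.9%. Captured sites on other chromosomes ran from 4007 (4 h) to 29787 (1 h replicate 2) over the 12 columns. Captured near sites on the centromere side and on the far side numbered 493 and 551 in mitosis, 469 and 541 in 30 min replicate 1, 444 and 535 in 30 min replicate 2, 451 and 498 in 1 h replicate 1, and 461 and 515 in 1 h replicate 2. They numbered 459 and 517 at 2 h, 353 and 425 at 3 h, 314 and 400 at 4 h, 408 and 453 in G2, 471 and 515 in G0 replicate 1 and 443 and 492 in G0 replicate 2. The far side had more captured near sites than the centromere side in each of them. Of near reads, the centromere side held 49.7%, 51.2%, 50.3%, 51.6% and 51.3% in the first 5 columns and 46.9%, 46.1%, 47.1%, 49.4%, 45.7%, 48.8% and 46.2% in the others.

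The chromosome 8 share of all reads was 73.1% in mitosis, 61.8% and 36.4% at 30 min, 70.4% and 65.2% at 1 h, 63.6% at 2 h, 51.3% at 3 h and 47.5% at 4 h. It was 43.95% in G2 and 77.1% and 85.6% in G0. Both G0 libraries were above every other library in this share, and 30 min replicate 2 and G2 were the lowest. In column order the share ran 85.6%, 77.1%, 43.95%, 73.1%, 70.4%, 65.2%, 63.9%, 63.5%, 61.8%, 36.4%, 51.3% and 47.5%. Both G0 libraries were also above every other title in this share at B26 (81.9% and 89.1%), B44 (84.7% and 86.4%) and B53 (84.6% and 91.4%). At B87 and B118 G0 replicate 2 was highest (85.8% and 83.7%), while G0 replicate 1 had 54.0% and 52.5%. The title 30 min replicate 2 was lowest in this share at every chromosome 8 bait.

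**Figure D2:**
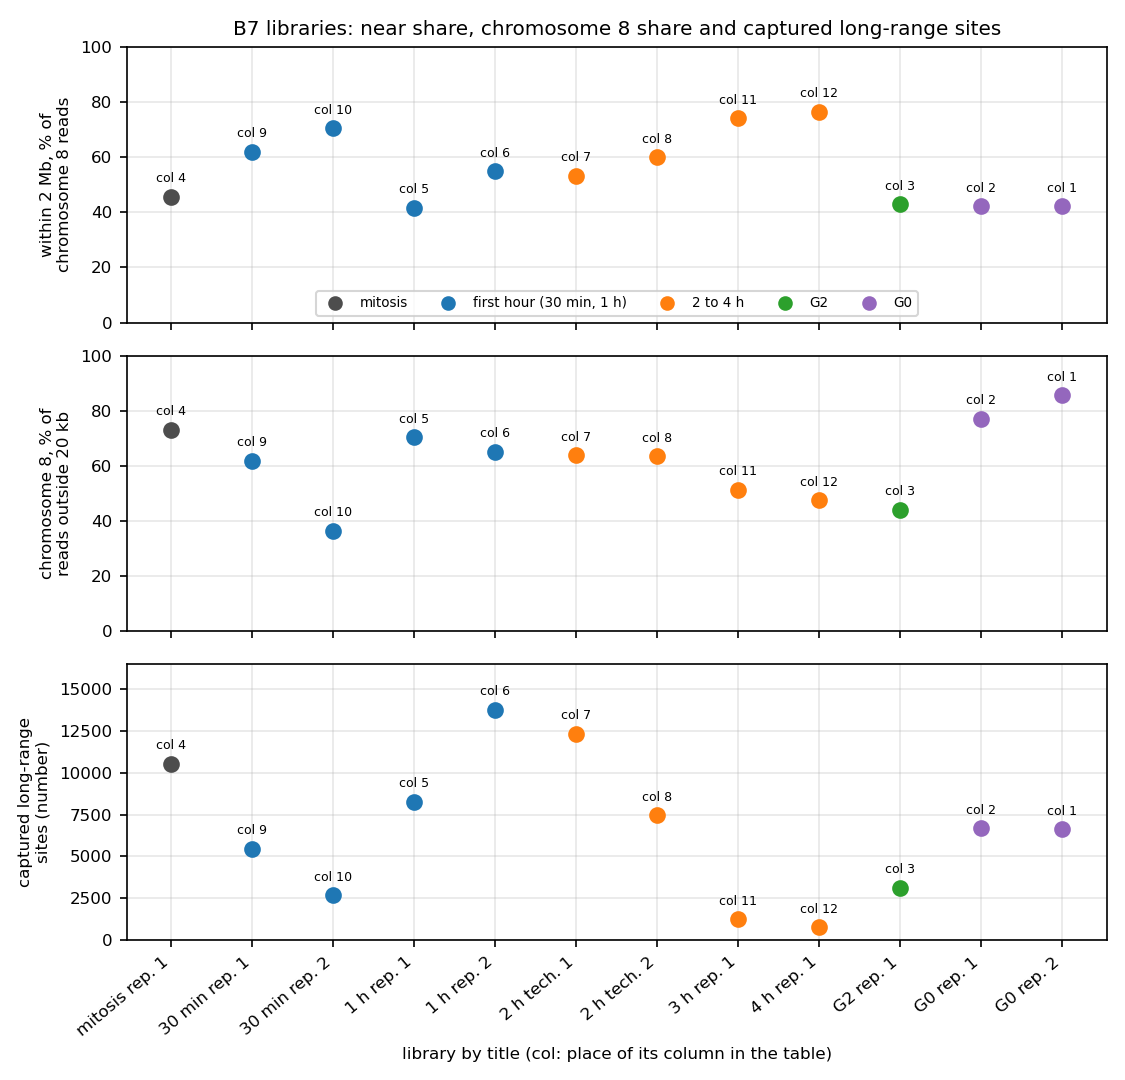
Each point is 1 of the 12 B7 libraries, placed by title and coloured by stage, with its column place written beside it. The panels plot the near share of chromosome 8 reads (%), the chromosome 8 share of reads outside 20 kb (%) and the number of captured long-range sites. Near shares sit between 41.6% and 45.7% in columns 1 to 5 and between 53.2% and 76.5% in the others, while the libraries titled 3 h and 4 h have the fewest long-range sites.

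The first comparison asks whether contacts of B7 changed within early G1, between 2 to 4 h and the first hour. The near share averaged 69.6% ± 9.98 at 2 to 4 h (SD, n = 3) and 57.3% ± 12.2 in the first hour (SD, n = 4), a difference of 12.3 points within groups that overlap. The difference did not pass a two-sided exact permutation test over the 7 libraries (p = 0.2), whose smallest possible p is 0.0286. The chromosome 8 share averaged 54.1% ± 8.42 at 2 to 4 h and 58.4% ± 15.1 in the first hour, a difference of -4.33 points (exact permutation p = 0.686). All 2 to 4 h libraries carry the 21-base bar code, and the first-hour libraries of that length had near shares of 62.0% and 41.6%. Without 1 h replicate 2 and 2 h technical replicate 1 the near share differed by 12.2 points (exact permutation p = 0.3). Without 30 min replicate 2 and 3 h it differed by 14.5 points (exact permutation p = 0.4) and the chromosome 8 share by -10.3 points (p = 0.2, exact permutation). In reads per 100-kb bin near the bait, edgeR's quasi-likelihood test called 0 of 38 bins at an adjusted p of 0.05 (percent called over all 6 baits of chromosome 8, 0%), with 3 bins at an unadjusted p under 0.05. Among 500-kb long-range bins it called 0 of 244 (0% over all 6 baits), with 4 at an unadjusted p under 0.05. DESeq2 called 0 of these B7 bins too, with 12 long-range bins at an unadjusted p under 0.05, and its share over all 6 baits was 0.0684%. The spread between B7 libraries was wide at long range, with a biological coefficient of variation of 0.810, against 0.198 in near bins.

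The second comparison sets serum-starved G0 against 2 to 4 h. The near share averaged 42.2% ± 0.00528 in G0 (SD, n = 2) and 69.6% ± 9.98 at 2 to 4 h (SD, n = 3), a difference of -27.4 points with no overlap. An exact permutation test gave p = 0.2, and 2 against 3 libraries cannot go below 0.1, so the design cannot pass 0.05. Without 30 min replicate 2 and 3 h the difference was -25.2 points (exact permutation p = 0.333). Of the 38 near bins, 5 (13.2%) passed edgeR's test at an adjusted p of 0.05, against 9.65% over the near bins of all 6 baits. One bin rose and 4 fell as shares of near reads.

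The bin that rose, chr8:5573966-5673965, holds Gm1840, the predicted gene at the centromere-side edge of the gene-free span. It had 2.72% and 2.20% of near reads in G0, against 1.30%, 1.04% and 0.680% at 2, 3 and 4 h. Both G0 libraries were above all 2 to 4 h libraries (log2 fold change 1.27 ± 0.34 SE, edgeR adjusted p = 0.0309). The 4 bins that fell lay inside the gene desert, closer to the bait. The bin chr8:6573966-6673965 had 2.47% and 1.95% in G0, against 2.76%, 4.24% and 4.32% at 2, 3 and 4 h (log2 fold change -0.81 ± 0.23, adjusted p = 0.0349 by edgeR). The bin chr8:7573965-7673964 had 4.19% and 3.64% in G0, against 4.62%, 5.44% and 6.26% (-0.51 ± 0.15, edgeR adjusted p = 0.0371). The bin chr8:7373965-7473964 had 6.32% and 6.76% in G0, against 7.53%, 9.19% and 9.64% (-0.46 ± 0.13, edgeR adjusted p = 0.0371). The bin chr8:6873966-6973965 had 4.84% and 5.37% in G0, against 6.32%, 6.34% and 7.04% (-0.40 ± 0.12, edgeR adjusted p = 0.0423). In none of the 5 bins did the groups overlap. The calls rested on single libraries: without 3 h, without 4 h, or without either G0 library, 0 bins passed, and 0 passed when captured sites were counted in place of reads.

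At long range, edgeR called 0 of 244 bins between G0 and 2 to 4 h (0% over all 6 baits), although 70 bins had an unadjusted p under 0.05 and the smallest adjusted p was 0.0651. DESeq2 called 65 of them, 39 higher and 26 lower in G0, and 25.1% of the bins of all 6 baits. Counting captured sites per bin gave 52 calls, 43 higher and 9 lower in G0, while scaling by read totals gave 15 calls, 4 higher and 11 lower. Both the long-range count and its balance of directions therefore depended on the method, and no single region is named. G2 and mitosis have 1 library each for B7 and were not tested.

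The near profile of B7 was uneven but recurred among libraries. On the centromere side the most captured 100-kb step lay 600 to 700 kb from the bait, with 87.01% ± 3.30 of 28 sites captured (SD, n = 11). It was followed by the steps at 400 to 500 kb (76.9% ± 4.62), 1500 to 1600 kb (76.2% ± 13.3), 20 to 100 kb (76% ± 4) and 200 to 300 kb (72.7% ± 2.50). On the far side the highest steps were at 1200 to 1300 kb (87.4% ± 8.47), 1800 to 1900 kb (87.01% ± 8.03), 1400 to 1500 kb (85.0% ± 12.2), 200 to 300 kb (82.8% ± 3.78) and 1300 to 1400 kb (81.5% ± 8.73). The steps at 1200 to 1500 kb on the far side reach the end of the gene desert, where Efnb2 and Arglu1 begin. Capture there was about as high as at 200 to 300 kb on the same side. Of these steps, those nearer the bait varied less between libraries than the more distant ones.

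**Figure D3:**
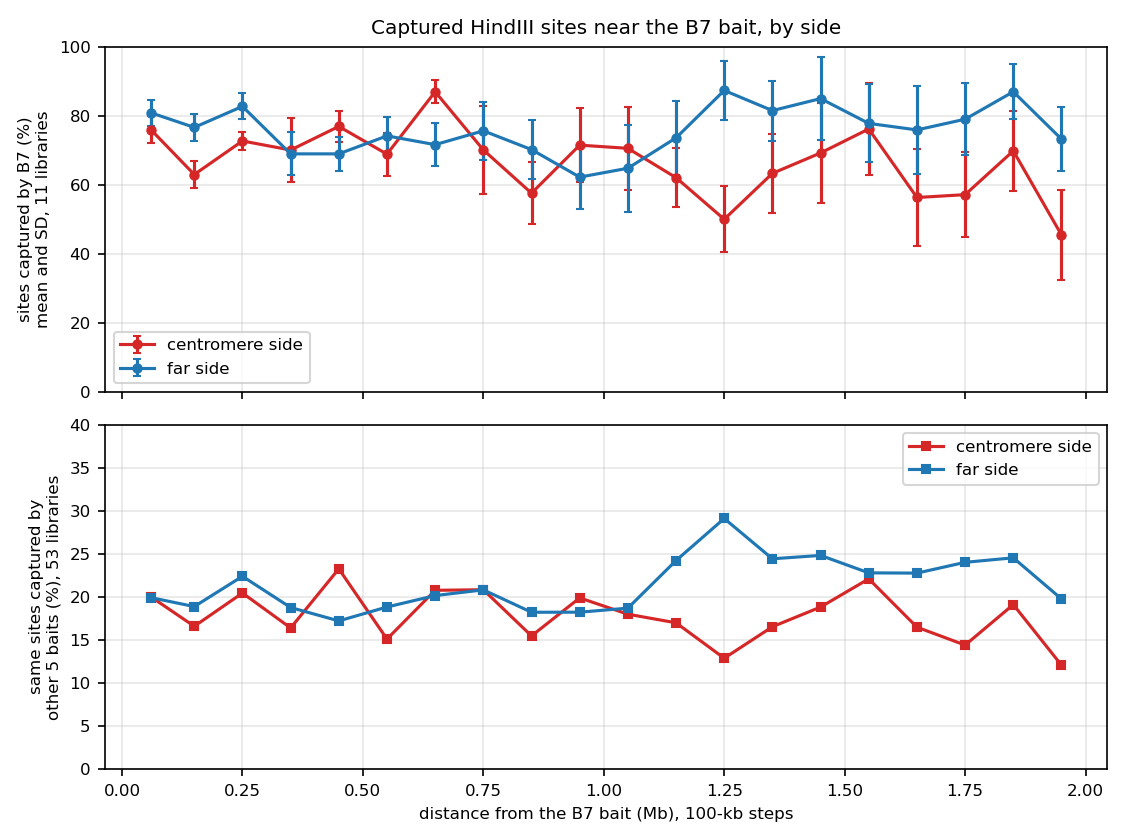
Percent of HindIII sites captured in 100-kb steps from the B7 bait (the first step starts at 20 kb), on the centromere side and on the far side. The upper panel gives the mean and SD of 11 B7 libraries, and the lower panel the same sites in 53 libraries of the other 5 baits. The B7 far side reaches 87.4% at 1200 to 1300 kb, where its centromere side has 50.0%, and the other baits differ there by -16.2 points (centromere side minus far side).

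Fewer near sites were captured on the centromere side than on the far side in every library. The centromere side held 47.2% of captured near sites in the median library (43.98% to 47.8%) against 50% of the near sites present. The mean difference over libraries was -3.39 ± 1.20 points (SD, n = 11, below 0 in 11 of 11, exact sign-flip permutation p = 0.000977, the smallest possible). The difference depended on how it was counted. It was -3.46 points without 1 h replicate 2 and 2 h technical replicate 1, and -3.12 without 30 min replicate 2 and 3 h. Within 1 Mb of the bait it was -0.731 points, and in reads -1.10 points (exact p = 0.116). Sites of the centromere side were also captured less by the other 5 baits, which had 45.2% of their 13522 captures in this window there and left 152 sites on the centromere side and 91 on the far side uncaptured. Against that expectation, chosen after seeing the data, B7 had 1.38 ± 1.20 points more on the centromere side, below 0 in 1 of 11 libraries (exact permutation p = 0.00586), so the sign turned. The other 5 baits all lie beyond the far side, from chr8:26774327 to chr8:118459323, so that side is nearer to them. Their captures are thus no neutral expectation, and the part of distance in the turned sign was not tested. Between mirror steps the widest gap was at 1200 to 1300 kb, 50.0% ± 9.58 on the centromere side and 87.4% ± 8.47 on the far side, and the other baits differed by -16.2 points at the same steps. At 600 to 700 kb the centromere side was higher by 15.4 points in 11 of 11 libraries, where the other baits differed by 0.610 points.

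Genes around the bait are described by captured sites within 50 kb of the gene, as log2 observed over expected, where the expected share is each library's own trend with distance. The lists of neighbouring genes were taken by position along the chromosome. Windows of close genes overlap, and Angpt2 lies inside Mcph1, so counts of genes below repeat some of the same sites. Efnb2 had a log2 ratio of 0.41 ± 0.22 (SD, above 0 in 11 of 11 libraries), with 87.2% of its 47 sites captured in the median library. Arglu1, whose product acts in splicing and transcription, had 0.42 ± 0.21 (11 of 11), and Fam155a, an auxiliary subunit of a sodium leak channel, had 0.18 ± 0.16 (11 of 11). Over all 8 genes from Slc10a2 to Myo16 the median was 0.06, with 4 above 0. The genes Lig4, Abhd13, Tnfsf13b and Myo16, just beyond Fam155a, had means between -0.10 and 0.00 that rested on the library titled 4 h, where they had -1.14, -1.33, -1.12 and -0.87. Without that library the means were 0.11, 0.08, 0.00 and 0.02, and all 8 genes of the block were above 0.

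The 8 genes of the island between B7 and the centromere had a median of -0.21, with 2 above 0, and this low value rested on the 3 libraries with the fewest long-range sites. Without 30 min replicate 2, 3 h and 4 h, an alternative chosen after seeing the data, the median was 0.17 and 7 of the 8 were above 0. Arhgef18, for example, had -1.79, -3.09 and -2.14 in those libraries and was above 0 in the other 8. Insr, the insulin receptor gene, had -0.25 ± 0.73, a spread wider than the value, and was above 0 in 7 of 11 libraries. Lass4, a ceramide synthase gene, had -0.49 ± 0.38 and was above 0 in 0 of 11 libraries, and -0.29 without those 3 libraries, although 52.4% of its 42 sites were captured in the median library. Low capture at Lass4 was not particular to B7. The other baits captured 15.4% of its sites, against 22.5% to 28.3% at the other genes of the island. The 10 genes from Irs2 to Gas6 had a median of -0.17, with 0 means above 0, but 0.11 with 8 of 10 above 0 without the same 3 libraries. Irs2 was above 0 in 8 of 11 libraries and Col4a1 in 7. Gas6, which encodes a ligand of receptor tyrosine kinases, had -0.50, above 0 in 2 of 11, and -0.23 without the 3 libraries. In the Csmd1 block 5 of 6 genes were above 0, with a median of 0.27. Csmd1, which encodes a large membrane protein that restrains complement, had 0.30 ± 0.17 in 11 of 11 libraries over 604 sites. Myom2, Mcph1, Angpt2 and Agpat5 had 0.29, 0.25, 0.25 and 0.30. Without the 3 libraries the Csmd1 block had a median of 0.15, with 6 of 6 above 0. Over all 124 protein-coding genes within 12 Mb the median was -0.14, the range -1.62 to 0.52, and 33 were above 0, against a median of 0.08 and 78 above 0 without the 3 libraries. These values describe the libraries and were not tested.

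Across chromosome 8 the long-range profile was computed in 242 bins of 500 kb, each library thinned to 686 captured sites beyond 2 Mb and set against its own distance trend. The highest bin, chr8:56000001-56500000, holds Gpm6a, a gene for a neuronal membrane glycoprotein, and had a mean log2 ratio of 0.59 ± 0.42 (SD, above 0 in 10 of 11 libraries). This bin has 65 HindIII sites, against 150 to 181 in the rest of the highest 5, so the pseudocount of 0.5 weighs more there. Without thinning its ratio was 0.38 ± 0.36, below the rest of the highest 5 (0.45 to 0.63). The part of the pseudocount in its rank was not tested. The next, chr8:89500001-90000000, holds Cbln1, which encodes a synapse organiser of the cerebellum, with 0.52 ± 0.39. Without 1 h replicate 2 and 2 h technical replicate 1 this bin had 0.47 ± 0.55, above 0 in 7 of 10 libraries, rank 6 of 242. Next came chr8:118500001-119000000, near the series' bait B118, with 0.52 ± 0.52, and this value rested on the sharing libraries: without 1 h replicate 2 and 2 h technical replicate 1 it was 0.20, rank 46 of 242. A pair of neighbouring bins of Csmd1 completed the highest 5, chr8:17500001-18000000 with 0.48 ± 0.25 in 11 of 11 libraries and chr8:17000001-17500000 with 0.47 ± 0.37 in 9 of 11. The second of these bins is centred 10.0 Mb from the bait, and the median library captured 74.7% of its sites.

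The lowest bin, chr8:22000001-22500000, lies in the alpha-defensin cluster, whose genes encode antimicrobial peptides of the gut, and had -2.22 ± 0.56 (above 0 in 0 of 11 libraries). Its 125 sites are among a repeated gene family, and the other baits captured 3.47% of them. The bins chr8:19500001-20000000 (-1.52 ± 0.56) and chr8:22500001-23000000 (-0.98 ± 0.37), the second with more defensin genes, were also below 0 in every library. The other baits captured 6.47% and 13.6% of their sites. The bin chr8:73500001-74000000, with Myo9b, Nr2f6 and 10 other genes, had -0.78 ± 0.59, and chr8:69000001-69500000, with the neuropeptide Y receptor genes Npy1r and Npy5r, had -0.63 ± 0.60. Pairs of B7 libraries correlated weakly over the 242 bins (Pearson's r median 0.232, -0.00316 to 0.605, across bins that share the same sites), and the highest r was between 1 h replicate 2 and 2 h.

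**Figure D4:**
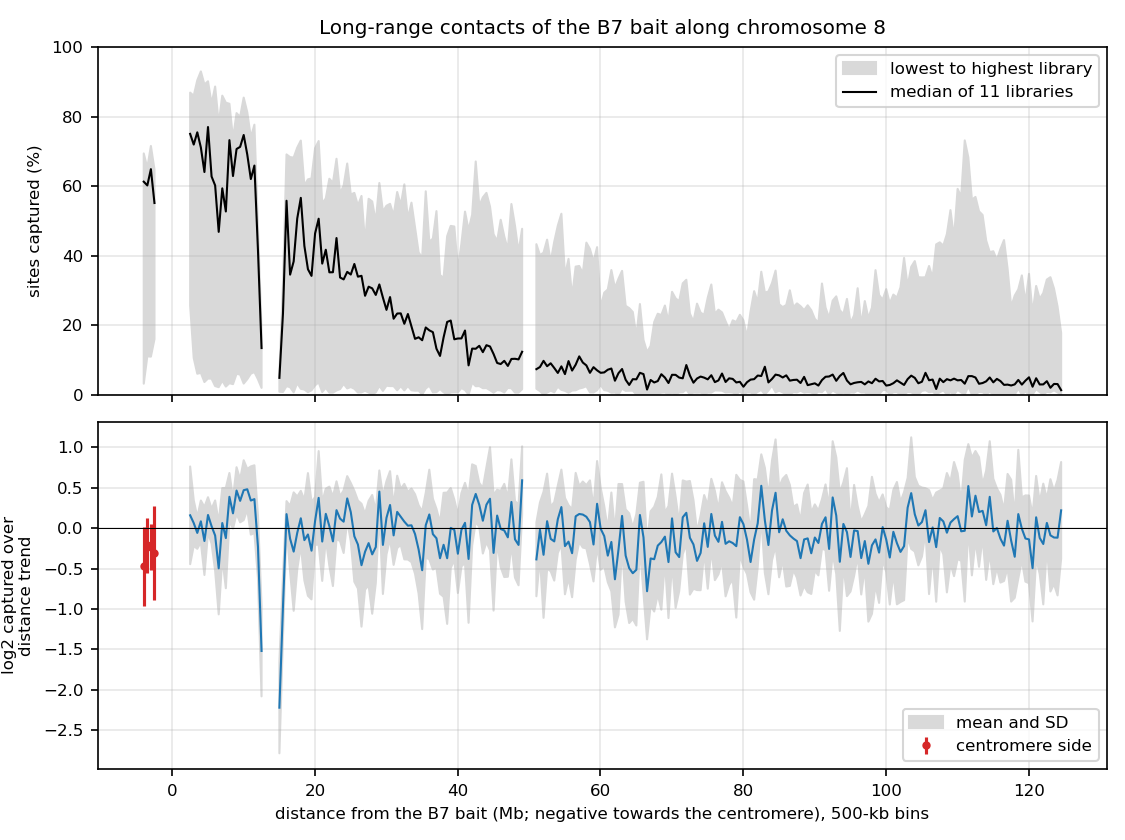
B7 contacts along chromosome 8 in 500-kb bins against distance from the bait in Mb. The upper panel plots the percent of sites captured (median line and range of 11 libraries), and the lower panel the log2 ratio of captured sites to the distance trend (mean and SD), with gaps at bins of under 50 sites. Most bins of the lower panel lie near 0, the defensin cluster falls to -2.22, and the highest bin reaches 0.59.

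The libraries titled 1 h replicate 2 and 2 h technical replicate 1 also differed from the rest around the bait B118. They captured 71.0% and 59.5% of the 331 sites within 500 kb of it, against 0.906% to 8.76% (median 3.78%) in the other 10 columns. The part of this in the shared sites was not tested.

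On other chromosomes B7 stood apart from the other baits in where its captures fell. In the first 10 Mb of assembled sequence of the other 18 autosomes, the end next to the centromere, B7 captured more sites than their share of HindIII sites. These regions hold 8.23% of autosomal sites and took 11.6% of captured ones in mitosis, 8.89% and 8.26% at 30 min, 11.3% and 9.29% at 1 h, 9.32% at 2 h, 8.48% at 3 h and 8.47% at 4 h. They took 8.24% in G2 and 12.1% and 9.04% in G0. All 11 libraries were above 8.23%, but G2 and 30 min replicate 2 barely so, and mitosis, 1 h replicate 1 and G0 replicate 1 were highest. The log2 observed over expected averaged 0.20 ± 0.20 for B7 and -0.07 ± 0.05 for the mean of the other 5 baits (SD, n = 11 titles). The difference, 0.27 ± 0.17, was above 0 in 11 of 11 titles and passed a two-sided exact sign-flip permutation test (p = 0.000977, the smallest possible). Every alternative gave 0.24 to 0.34, among them 0.28 without 1 h replicate 2 and 2 h technical replicate 1, 0.31 without 30 min replicate 2 and 3 h, and 0.27 without sites captured in 5 or more libraries. The replicates of a title at different baits may share a culture, and the labels do not say.

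Bait by bait, the mean log2 ratio was 0.20 for B7, 0.05 for B26, -0.07 for B44, -0.06 for B53, -0.14 for B87 and -0.18 for B118, in the order of their distance from the centromere apart from B44 and B53. B7 was above each of the other baits, by 0.15 over B26, 0.27 over B44, 0.26 over B53, 0.31 over B87 and 0.34 over B118. These 5 pairs were tested after the data were seen, and each had an adjusted p of 0.00195 (exact sign-flip permutation, Benjamini-Hochberg over 5). In 5-Mb steps from the first assembled base B7 had 0.25 ± 0.21, 0.15 ± 0.21, 0.14 ± 0.17 and 0.07 ± 0.18. In the first of these steps B26, the bait next along chromosome 8, had 0.11 ± 0.12, and B118 had -0.15 ± 0.08. The B7 values did not fall steadily. They were 0.11 ± 0.11 at 20 to 25 Mb, 0.17 ± 0.09 at 25 to 30 Mb, 0.15 ± 0.07 at 30 to 35 Mb and 0.02 ± 0.05 at 35 to 40 Mb. At 25 to 30 and 30 to 35 Mb B26 was above B7, with 0.24 and 0.18.

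The difference was spread over chromosomes. B7 was above the other baits at the proximal end of 17 of 18 autosomes, and in 9 or more of 11 titles on 13 of them. It was widest on chromosome 1 (B7 0.31, other baits -0.17), chromosome 5 (0.09 and -0.38) and chromosome 13 (0.32 and -0.12). Chromosome 11 had the highest B7 level, 0.60 ± 0.18, with 0.24 for the other baits, and chromosome 19 went the other way, -0.12 for B7 and -0.03 for the other baits. Proximal ends of chromosomes 7 and 14 were captured less than their site count, at -0.74 and -0.67 for B7 and -0.99 and -0.87 for the other baits.

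At the opposite ends, the last 10 Mb, B7 had 0.08 ± 0.10 and the other baits 0.17 ± 0.06, a difference of -0.09 ± 0.08 that was above 0 in 2 of 11 titles (exact sign-flip permutation p = 0.00684). The distal difference rested on the baits nearest the other end of chromosome 8: it was -0.16 against B87 and -0.24 against B118 (adjusted p = 0.00977 for both, exact permutation), and -0.02, -0.01 and -0.04 against B26, B44 and B53 (adjusted p = 0.292, 0.584 and 0.277, exact permutation). GC content is 41.4% in the proximal ends, 43.9% in the distal ends and 41.9% over these autosomes. The Spearman correlation of other-chromosome captures with GC content over 1-Mb bins averaged 0.135 for B7 (0.0830 to 0.169 over libraries), with 0.112 for B53, the other bait without genes within 500 kb, and 0.170 to 0.321 for B44, B118, B26 and B87, as a description across bins.

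**Figure D5:**
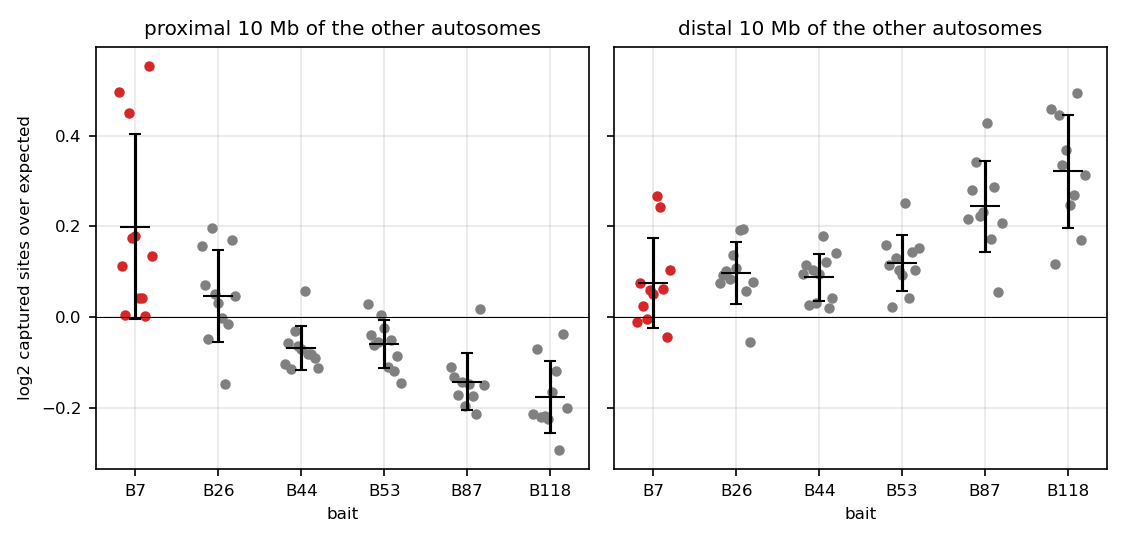
Log2 observed over expected captured sites in the first (left) and the last (right) 10 Mb of the other 18 autosomes, for B7 and each of the other 5 chromosome 8 baits, with 1 point for each title and the mean and SD in black. B7 points at the proximal end all lie above 0 and average 0.20, and the means of the other baits run from 0.05 for B26 down to -0.18 for B118.

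Of 20 chromosomes 2 passed (10.0%) for B7 against the mean of the other baits: chromosome 3 by 0.05 ± 0.03 on the log2 scale in 11 of 11 titles (adjusted p = 0.0195, exact sign-flip permutation over 20 chromosomes) and chromosome 18 by 0.05 ± 0.04 in 10 of 11 (adjusted p = 0.0293, exact permutation). Levels per chromosome were shared among the baits, for example 0.49 for B7 and 0.45 for the other baits on chromosome 17, and -0.76 and -0.73 on chromosome 14. Chromosome Y, with 855 sites, had the widest difference, 1.29 ± 1.18 (-3.89 for B7 and -5.19 for the other baits, B7 higher in 9 of 11 titles), and did not pass (adjusted p = 0.0625, exact permutation). Levels this low on 855 sites stand for very few captured sites in a library, so the pseudocount of 0.5 weighs on this difference. The number of chromosomes that passed ran from 1 to 6 when 1 title was left out.

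The highest 1-Mb bin on other chromosomes was chr11:3000001-4000000, next to the centromere of chromosome 11, with 23 genes including Sfi1, a centrin-binding protein gene. B7 had a log2 ratio of 2.12 ± 0.52 there, and the other baits averaged 1.66. The next were chr10:99000001-100000000 with Kitl, the ligand of the Kit receptor, and Cep290 (1.34 ± 0.62 for B7, 0.32 for the other baits) and chr5:4000001-5000000 with Akap9, Cyp51, Fzd1 and Cdk14 (1.18 ± 0.29 and 0.04, B7 higher in 11 of 11 titles). They were followed by chr10:123000001-124000000 with Fam19a2 (1.10 ± 0.41 and 0.58) and chr19:4000001-5000000 with 45 genes (1.10 ± 0.26 and 0.91). The bins of chromosomes 11 and 19 were high for B7 and for the other baits, and chr5:4000001-5000000 had the largest excess of B7 among these 5 bins, 1.14 ± 0.41.

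Single sites recurred as well. On other chromosomes 42 sites were captured in all 11 B7 libraries and 93 in 10 or more, and these 93 held 1.01% to 12.9% of other-chromosome reads (median 5.19%). The sites in 10 or more of 11 libraries numbered 9 for B26, 348 for B44 and 40 for B53. The 4 with the most reads in the median library are printed with 27 bases on each side of the HindIII site (mm9, + strand, HindIII in capitals), since they were captured by B7 in 11 of 11 libraries and by few libraries of other baits.
Chchd3 intron, chr6:33002650-33002709: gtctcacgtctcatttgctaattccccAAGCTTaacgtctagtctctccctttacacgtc
Eif3g exon, chr9:20698788-20698847: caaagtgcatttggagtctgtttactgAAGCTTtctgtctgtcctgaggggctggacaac
near Acp5, chr9:21945143-21945202: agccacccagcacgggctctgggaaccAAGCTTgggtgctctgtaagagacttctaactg
Akap9 intron, chr5:4058340-4058399: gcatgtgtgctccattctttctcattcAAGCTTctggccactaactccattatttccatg
The site in Chchd3, a gene for a protein of the mitochondrial inner membrane, had 123 to 19327 reads (median 6487) and was the other-chromosome site with most reads in 7 of 11 libraries. It was captured in 5 of 53 libraries of the other baits. The 13 HindIII sites within 30 kb of it held 377 reads in all B7 libraries together, against 89716 at the site itself. The site in Eif3g, which encodes a subunit of a translation initiation factor, had 169 to 34029 reads (median 5273), and its 16 neighbours held 362 against 81591. The site 5.0 kb from Acp5, an acid phosphatase gene of osteoclasts, had a median of 2425 reads, and that in Akap9, a gene for a scaffold protein of centrosomes and Golgi, 2053. Each of these 3 was captured in 3 of 53 libraries of the other baits. The fifth by median reads, 32.7 kb from Hormad2 on chromosome 11, had 1598. These were lone sites, read-rich among neighbours with almost no reads, and the cause was not tested.

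Recurrent long-range sites looked different. On chromosome 8, 63 long-range sites were captured in all 11 libraries. The 5 with the most reads in the median library lay 6.6 and 107.4 kb from Slc10a2, near Shcbp1 and in introns of Fam155a (2 sites). These 5 sites lie little beyond the 2 Mb limit of near contacts, at chr8:4791837-5212653 on the centromere side and chr8:9242813-9564349 on the far side. Slc10a2 encodes the ileal bile acid transporter. The site 6.6 kb from it had 71 to 1430 reads (median 695), and its 16 neighbours within 30 kb held 55849 reads against 8715 at the site. Those neighbourhoods were captured as a whole, and the first 3 sites were captured in 19 to 28 of 53 libraries of the other baits.

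Capture on other chromosomes also varied with the length of the restriction fragment end. The median library captured 1.56% of sites whose nearest DpnII site was within 50 bp, 2.19% at 50 to 100 bp, 2.18% at 100 to 200 bp, 2.05% at 200 to 400 bp, 1.00% at 400 to 800 bp and 0.513% beyond 800 bp. Sites with a long end were thus captured less often.

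Within chromosome 8 the near share of B7 averaged more than that of each other bait, compared within titles. Its near share was 9.11 ± 2.90 points above B26, 23.5 ± 14.3 above B44 and 22.9 ± 4.89 above B53 (adjusted p = 0.00163 for each, exact sign-flip permutation over 11 titles, Benjamini-Hochberg over 5 baits). It was 12.9 ± 2.55 points above B87 (adjusted p = 0.00244) and 5.14 ± 6.09 above B118 (adjusted p = 0.0234, higher in 8 of 10 titles), both by the exact permutation test over 10 titles. Without 1 h replicate 2 and 2 h technical replicate 1 the difference from B118 was 2.35 points and did not pass (adjusted p = 0.219, exact permutation). B7 has 3146 sites at 2 to 10 Mb, against 4345 to 5272 for the other baits, as the assembled chromosome ends 4.22 Mb away on one side. Over the distal side of each bait alone, an alternative chosen after seeing the data, B7 remained higher than B53 by 13.0 points (adjusted p = 0.00488, exact permutation). It was 2.50, 2.87 and 1.60 points from B26, B44 and B87 (adjusted p = 0.187, 0.359 and 0.359, exact permutation), and -19.9 points from B118 (adjusted p = 0.00488, exact permutation), a bait with 3497 sites on that side.

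The chromosome 8 share of B7 reads was below that of B44, with a difference of -5.58 ± 3.33 points (adjusted p = 0.00488), and below that of B53, with -7.19 ± 5.49 points (adjusted p = 0.00977), by exact sign-flip permutation over 11 titles. Against B26, B87 and B118 the differences were 0.0991, 2.25 and -8.25 points (adjusted p = 0.935, 0.752 and 0.212, exact permutation). Counted in captured sites, B7 was 7.01 points above B44 (adjusted p = 0.0831, exact permutation), so the direction against B44 held for reads only.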

How the data were processed

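Read counts at each HindIII site were deposited by the authors as raw counts, 1 column per library. The tool BWA 0.5.9 and the build mm9 are named in the submitters' processing notes. Read filters are not given in the sources used here. Only the 12 B7 columns and those of the other 5 chromosome 8 baits were used, each by its title, and 39 other columns were not used. B7 was chosen, and its measures and gene lists were set, with earlier results of these data known.

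Table positions equalled the HindIII sites of mm9 on 21 of 21 chromosomes. Genes came from the GENCODE annotation of that build. The 2 technical replicates of 2 h were summed and counted once. Shares left out sites within 20 kb. Reads were summed per 100 kb up to 2 Mb from the bait, without its closest 50 kb, and per 500 kb beyond, and tested with edgeR 4.0.16 (TMM, filterByExpr, robust quasi-likelihood; R 4.3.3), each bait in its own fit, with Benjamini-Hochberg adjustment at 0.05 over all 6 baits. DESeq2 1.42.0 was an alternative. Other tests were two-sided exact permutation tests over libraries (Python 3.11.15, numpy 2.4.6). Spearman correlations used scipy 1.17.1. Profiles used a lowess on log distance (pseudocount 0.5, 10 draws). The bin test was tested on simulated data. Standard errors of fold changes (log2) were derived from the F statistic.

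Depth ran from 383908 to 6722592 reads per B7 library. Captured long-range sites numbered 740 to 13787 over the 12 columns. Named regions were the 5 highest and 5 lowest long-range bins, the 5 highest near bins on each side, the called bins, the 5 highest 1-Mb bins of other chromosomes and the sites captured in most libraries, with ties ordered by median reads. Genes of the 4 neighbourhood lists were named besides. Alternatives were captured sites, capped reads, 2 reads or more, other bins, limits and scalings, a replicate block, each library left out and fits without the sharing libraries. Chosen after seeing the data were the side expected from other baits, distal sides only, fits without 30 min replicate 2 and 3 h, landmark genes without 30 min replicate 2, 3 h and 4 h, and ends without sites in 5 or more libraries.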

Additional observations from a re-analysis of the deposited data

Results flagged for a closer look

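In the first hour, the chromosome 8 share of captured B7 sites was 17.5% in 30 min replicate 2, against 32.96%, 34.7% and 33.1% in 30 min replicate 1, 1 h replicate 1 and 1 h replicate 2. The gap of this library to the nearest other one was a larger part of the group's range than Dixon's 95% limit for 4 samples. Chance alone passes that limit in about 1 in 20 groups. Several measures of the same 4 libraries were set against it and only this one passed, so a flag by chance is more likely than that rate. The same library had the lowest chromosome 8 share of reads (36.4%) and shared 32.04% of the sites of the library titled 3 h, and the part of that in its value was not tested. The low share was not particular to B7. This title had 17.4%, 23.1%, 16.2% and 18.4% of captured sites on chromosome 8 at B26, B53, B87 and B118, the lowest of the first-hour titles at each. At B44 it had 18.2%, above 30 min replicate 1 (15.2%) and 1 h replicate 2 (14.8%).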

How the results depend on the processing

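The proximal and distal differences on other autosomes kept their direction and their side of the threshold under all alternatives run. The near and chromosome 8 shares between stages kept their direction, while their tests had little or no room to pass 0.05 in this design and say nothing of stability. When 1 title was left out, the proximal difference ran from 0.24 to 0.29, the distal one from -0.11 to -0.08, the near share of 2 to 4 h minus the first hour from 7.12 to 18.1 points, the chromosome 8 share of the same contrast from -11.7 to -0.348 and the near share of G0 minus 2 to 4 h from -33.1 to -23.9. Near bins called between G0 and 2 to 4 h numbered 5, with 10 by DESeq2 (19.3% over all 6 baits), 0 on captured sites, 0 without 30 min replicate 2 and 3 h, and 0 to 6 with 1 library left out. Long-range bins called in the same contrast numbered 0, with 65 by DESeq2 (39 higher in G0), 15 with read totals (4 higher), 52 on captured sites (43 higher), 31 in wider bins (21 higher) and 0 to 20 with 1 library left out. The libraries titled 3 h and 4 h hold 1232 and 740 captured long-range sites, the depth behind their long-range values, and the landmark gene lists on the centromere side and from Irs2 to Gas6 changed sign without them and 30 min replicate 2 (median 0.17 and 0.11).

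The labels do not say whether libraries with the same replicate number came from the same culture. Deviations of same-numbered libraries correlated at 0.164 (30 min and 1 h), -0.13 (30 min and G0) and -0.16 (1 h and G0) over 244 bins. With a replicate block, called near bins of G0 over 2 to 4 h numbered 1, long-range bins 0, and the near share of 2 to 4 h minus the first hour was 17.8 points (exact p = 0.3).

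The centromere side share was -1.10 in reads, -0.731 with a limit of 1 Mb, 1.38 against captures by the other baits and -3.51 to -3.13 with 1 title left out. The near share against B118 was 2.35 points (exact adjusted p = 0.219) without 1 h replicate 2 and 2 h technical replicate 1, and over distal sides it was 2.50, 2.87, 1.60 and -19.9 points against B26, B44, B87 and B118. With 1 title left out the near share ran from 8.63 to 9.53 against B26, 21.5 to 25.7 against B44, 21.9 to 23.3 against B53, 12.5 to 13.4 against B87 and 3.77 to 6.17 against B118. The chromosome 8 share was -5.92, 7.01 and -4.76 on captured sites against B26, B44 and B87. Against B26 it was -0.415 without 1 h replicate 2 and 2 h technical replicate 1, -0.566 without 30 min replicate 2 and 3 h, and -0.464 to 0.623 with 1 title left out. With 1 title left out it ran from -0.0651 to 5.92 against B87, -11.9 to -5.19 against B118, -6.07 to -5.13 against B44 and -8.40 to -6.61 against B53. Without G0 replicate 1 the share against B118 passed (adjusted p = 0.0130, exact permutation). Chromosomes that passed numbered 1 with capped reads, 5 with 2 reads or more, 1 without 1 h replicate 2 and 2 h technical replicate 1, and 1 to 6 with 1 title left out. The cause of these changes was not tested.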
